A study of Mus musculus with 8 samples.

Results

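The Celf family of RNA-binding proteins, 6 genes named Celf1 to Celf6, was examined in mouse cortex labelled Nova2 KO, against wild type cortex. Probe sets were assigned by the platform annotation to exactly 1 member, with the older names Cugbp1, Cugbp2, Tnrc4, Brunol4, Brunol5 and Brunol6 accepted, and 153 of the 391597 probe sets in the deposited table belonged to the family. Of these, 144 passed the filter on low signal (a mean over the 8 arrays above 5.86 log2), and all 6 genes were among the 11992 with a gene value. Celf2 had 45 probe sets, Celf1 30, Celf3 25, Celf4 23, Celf5 16 and Celf6 14. For Celf2, 3 of the 45 carried the clone name D230046B21Rik, a synonym of the gene in RefSeq.

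The samples were total RNA from the cortex of 4 Nova2 KO mice and 4 wild type mice, all of strain CD1 at postnatal day 10, with 1 exon array per mouse. The labels do not say which part of Nova2 was deleted or whether littermates were used. An exon array reads each gene through several short probe sets, so that single stretches of a transcript can be set against the gene as a whole. Array medians ran from 7.02 to 7.37 log2, and the arrays numbered 4 in each group had the lowest medians. Nova2 itself was read by 16 kept probe sets, and 1 of them separated the groups in the direction of the label. Probe set 5294108, chosen for the lowest p, had signals of 6.28, 7.17, 7.26 and 6.73 log2 in Nova2 KO and 8.87, 8.65, 8.53 and 8.66 log2 in wild type. All 4 Nova2 KO values were below all wild type values, with a difference of -1.82 log2 (SE 0.22) and a limma adjusted p of 0.0786 over all kept probe sets, short of the threshold of 0.05. In 2 other Nova2 probe sets, 4414499 (0.70 log2) and 4355944 (0.40 log2), all Nova2 KO values were above all wild type values, and in the remaining ones the groups overlapped. The gene value of Nova2, 8.54 ± 0.18 log2 in Nova2 KO and 8.56 ± 0.081 log2 in wild type (SD, n = 4 each), therefore does not check the labels, and which probe sets lie in the deleted stretch was not analysed here. The neuronal markers fixed for the cortex were measured in 8 of 9 cases, with Slc17a7, the vesicular glutamate transporter of excitatory neurons, at 11.98 log2 in Nova2 KO and 12.17 log2 in wild type.

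Celf proteins carry RNA recognition motifs and bind GU-rich sequence. In the nucleus they choose exons, and in the cytoplasm they steer the decay and translation of mRNAs, in part by recruiting enzymes that shorten the poly(A) tail. Celf1 and Celf2 are made in many tissues, and Celf3, Celf4, Celf5 and Celf6 are best known from the nervous system. Nova proteins bind YCAY motifs in neuronal pre-mRNAs, and earlier work on mouse brain named Celf2, under the name Cugbp2, among the transcripts whose 3-prime end depends on Nova. The comparison asked whether the level of any Celf gene, or the use of any stretch of its transcript, differed between cortex labelled Nova2 KO and wild type cortex. The positions of the probe sets in the genes were not analysed here, so no probe set is called an exon or a 3-prime end.

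At the gene level none of the 6 Celf genes passed the threshold of 0.05 on the adjusted p, against 0.208% of all 11992 genes tested (0.0917% higher and 0.117% lower in Nova2 KO). None had an unadjusted p under 0.05 (11.6% of all genes did), and in none were the 4 Nova2 KO values separate from the 4 wild type values (7.56% of all genes). The gene value was the median log2 signal over the kept probe sets of a gene on each array, so that a difference of 0 means equal signal. The 6 differences, Nova2 KO minus wild type, ran from -0.16 to 0.25 log2. Their median was 0.0028 log2 and their median size 0.051 log2, beside a median difference of 0.022 log2 and a median size of 0.11 log2 over all genes. Signals of different genes come from different probes and were not set against each other as levels.

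Celf1, the founding member, known for its part in myotonic dystrophy and for the decay of GU-rich mRNAs, had gene values of 10.01, 10.09, 10.003 and 9.74 log2 in Nova2 KO. In wild type it had 9.99, 10.09, 10.14 and 9.68 log2. The groups overlapped, and in both the array numbered 4 was lowest. The difference was -0.012 log2 (SE 0.12, 95% interval -0.28 to 0.26, limma adjusted p = 0.985), so that Nova2 KO over wild type was 0.992-fold with an interval of 0.824 to 1.19. After each array was centred on its median, the SD of Celf1 was 0.038 log2 in Nova2 KO and 0.053 log2 in wild type (n = 4 each), against 0.15 and 0.21 log2 as deposited.

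Celf2, a close relative of Celf1 and a regulator of neuronal exons, had gene values of 9.74, 10.06, 10.18 and 9.63 log2 in Nova2 KO, against 9.87, 9.96, 9.98 and 9.74 log2 in wild type. The Nova2 KO arrays lay on both sides of the wild type range. The difference was 0.017 log2 (SE 0.13, interval -0.26 to 0.30, limma adjusted p = 0.977). Its probe sets did not share this value, since 29 of the 43 kept ones were higher in Nova2 KO, with a median difference of 0.13 log2. The gene value of Celf2 also depended on which probe sets entered, at -0.29 log2 without a filter on low signal and 0.078 log2 with the filter at the 50th percentile, neither with a call.

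Celf3, a neural member with a glutamine repeat, differed most in size. It had gene values of 10.30, 10.07, 9.94 and 9.67 log2 in Nova2 KO, against 9.90, 9.90, 9.81 and 9.38 log2 in wild type. Nova2 KO 1, 2 and 3 were above every wild type array, and Nova2 KO 4 lay within the wild type range. The difference was 0.25 log2 or 1.19-fold (SE 0.15, interval -0.083 to 0.58, limma adjusted p = 0.564). With Nova2 KO 1 left out it was 0.14 log2, with wild type 4 left out 0.13 log2, and with Nova2 KO 4 left out 0.35 log2.

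Celf4, which in mice binds synaptic mRNAs and whose loss causes seizures, lay on the other side of 0. Its gene values were 10.50, 10.32, 10.44 and 10.005 log2 in Nova2 KO, against 10.60, 10.50, 10.41 and 10.39 log2 in wild type. Nova2 KO 2 and 4 were below every wild type array, and Nova2 KO 1 and 3 were within the wild type range. The difference was -0.16 log2 (SE 0.12, interval -0.42 to 0.10, limma adjusted p = 0.644), and it was -0.054 log2 without Nova2 KO 4.

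Celf5 and Celf6, the remaining neural members, showed no shared direction. Celf5 had gene values of 10.37, 10.19, 10.66 and 10.004 log2 in Nova2 KO and 10.45, 10.34, 10.37 and 10.10 log2 in wild type. The Nova2 KO arrays spread more widely than wild type (SD 0.28 against 0.15, n = 4 each), with Nova2 KO 3 highest and Nova2 KO 4 lowest of all 8. The Celf5 difference was -0.012 log2 (SE 0.14, interval -0.31 to 0.29, limma adjusted p = 0.988). Celf6, whose loss reduces the calls of mouse pups, had gene values of 8.60, 8.84, 8.26 and 8.51 log2 in Nova2 KO and 8.56, 8.67, 8.47 and 8.16 log2 in wild type. The highest array was Nova2 KO 2 and the lowest wild type 4. The Celf6 difference was 0.086 log2 (SE 0.14, interval -0.22 to 0.39, limma adjusted p = 0.858).

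**Figure D1:**
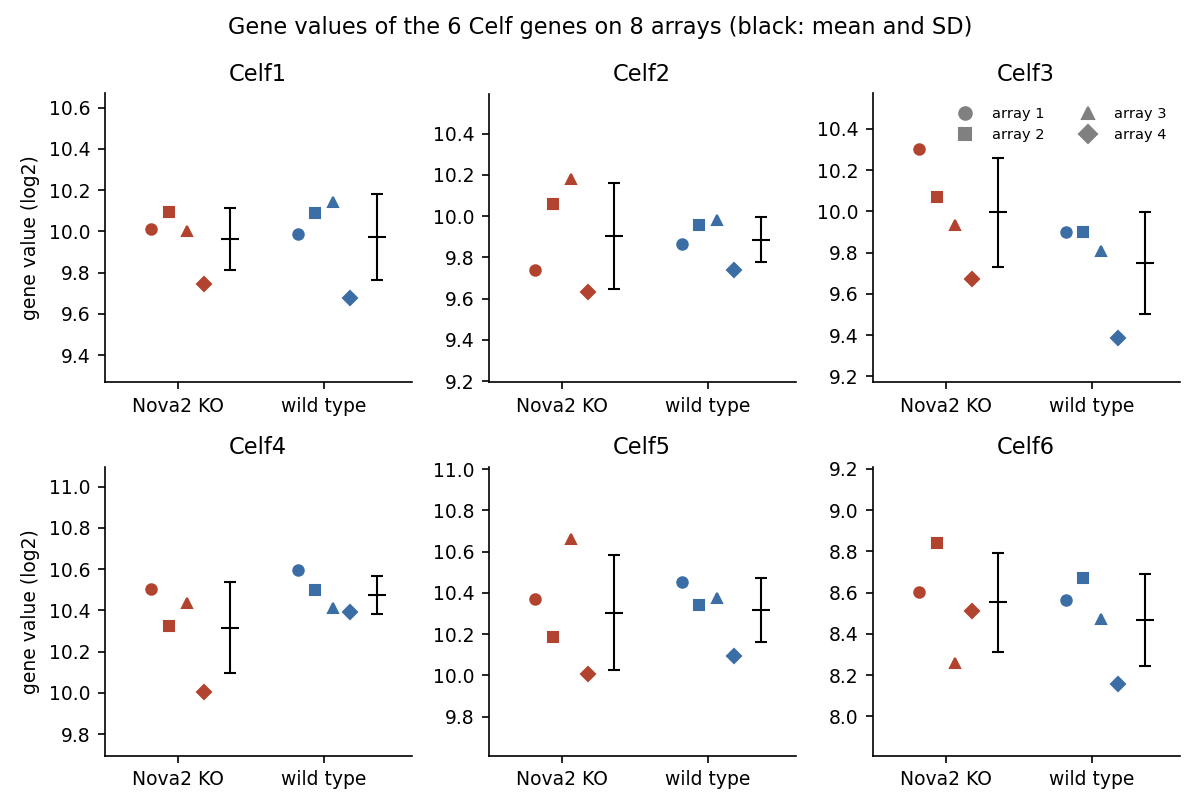
Gene values (log2, y axis) of Celf1 to Celf6 on each array, with Nova2 KO on the left and wild type on the right of each panel; symbols give the array number of the title, and the black bar gives the mean and SD of 4 arrays. The groups overlap in all 6 panels, and every panel spans 1.4 log2.

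Single probe sets of Celf3 and Celf4 ran the same opposite ways. On the signal scale, without reference to the gene, 19 of 24 Celf3 probe sets were higher in Nova2 KO (median difference 0.18 log2) and 21 of 22 Celf4 probe sets were lower (median difference -0.15 log2). Of all kept probe sets on the array 51.1% were higher. Parted at a mean signal of 9.5 log2, a value chosen after the signals were seen, all 13 bright Celf3 probe sets were higher, by 0.11 to 0.42 log2 with a median of 0.34 log2. The 11 dimmer ones were mixed, 6 higher and 5 lower. All 16 bright Celf4 probe sets were lower, with differences of -0.27 to -0.026 log2. Probe sets of a gene share the same 8 RNA samples, so these counts are a description and not a test.

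In 4 Celf3 probe sets all Nova2 KO values lay above all wild type values, which was so for 3.05% of all kept probe sets. The one with the largest difference, 4372025, had signals of 10.37, 10.07, 10.57 and 10.14 log2 in Nova2 KO, against 9.90, 9.86, 9.85 and 9.86 log2 in wild type. Its wild type arrays lay within 0.1 log2 of each other, and the difference was 0.42 log2. Celf3 had 6 probe sets with an unadjusted p under 0.05 for the signal, all higher, where 3.9% of all kept probe sets were. In Celf4, 2 probe sets had all Nova2 KO values below all wild type values, against 2.04% of all kept probe sets, and none had an unadjusted p under 0.05. Over the family, 9 of 144 probe sets had groups that did not overlap, beside 5.1% of all. No Celf probe set passed the adjusted threshold in the limma test of single signals (0.00681% of all kept probe sets did), and 11 of 144 had an unadjusted p under 0.05, against 6.68% of all. Of the 11, 7 were higher and 4 lower (2.78% of all were lower at that p), and the 4 lower ones were 3 of Celf2 and 1 of Celf6.

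Both genes are read on the same array, so a uniform shift of an array's log2 signals cancels in their difference, which can show unequal change but not which gene differed. Celf3 minus Celf4 was -0.20, -0.25, -0.50 and -0.33 log2 in Nova2 KO, against -0.69, -0.60, -0.60 and -1.01 log2 in wild type. All 4 Nova2 KO values were above all wild type values, a mean shift of 0.40 log2. The sign and size of each value depend on the probes and say nothing of which gene is more abundant. Of the 15 pairs of Celf genes, 2 had groups that did not overlap, where 7.91% of all pairs of genes had such groups. The other was Celf1 minus Celf3, with a shift of -0.26 log2, and both share Celf3. The pairs were looked at after the gene values were seen, and no p is given for them. Leaving out 1 array at a time kept the Celf3 minus Celf4 shift between 0.31 log2 (without wild type 4) and 0.46 log2 (without Nova2 KO 3).

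**Figure D2:**
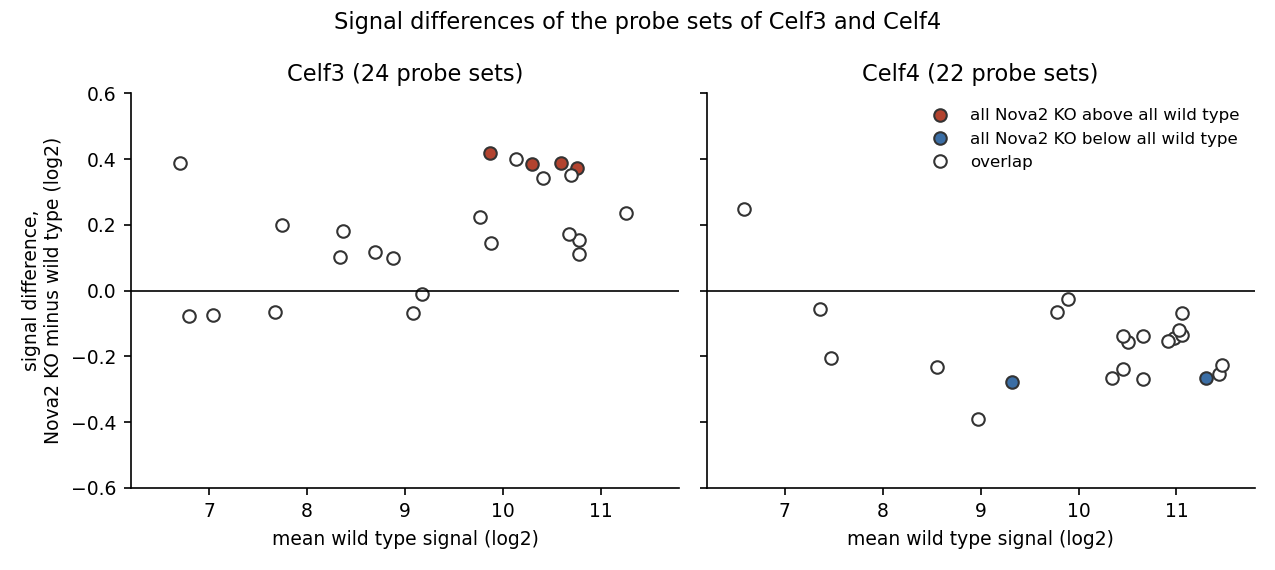
Difference of each kept probe set between Nova2 KO and wild type (log2, y axis) against its mean wild type signal (log2, x axis), for Celf3 on the left and Celf4 on the right. The bright Celf3 probe sets lie above 0 and the bright Celf4 probe sets below it; filled points are probe sets whose 4 Nova2 KO and 4 wild type values do not overlap, 4 for Celf3 and 2 for Celf4.

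Exon usage was read through the index of a probe set, its log2 signal minus the gene value on the same array. A higher index in Nova2 KO means that this stretch gained signal relative to the gene value, a median that includes the probe set itself. Where a probe set is itself that median, its index is 0. No Celf probe set passed the adjusted threshold, against 0.0133% of the 195014 indexed probe sets, and 9 of the 144 had an unadjusted p under 0.05 in the limma test, a share of 6.25% beside 6.76% of all. No Celf gene passed by the Simes p over its probe sets (0.161% of genes did), the lowest being Celf2 at an adjusted p of 0.629, and none had an unadjusted Simes p under 0.05 (8.37% did). The index differences of the family ran from -0.60 to 0.69 log2, with 77 higher and 67 lower (49.8% of all were higher) and 120 of 144 smaller than 0.25 log2 in size. Their median size was 0.12 log2, as for all indexed probe sets. Differences of 0.5 log2 or more were found for 8 of 144 (5.56%), beside 2.75% of all, and 5 of the 8 were in Celf2, 2 in Celf1 and 1 in Celf6. The 8 were dim for the family, with a median wild type signal of 8.39 log2, beside 9.93 log2 for all 144. Over all indexed probe sets these medians were 6.80 and 8.51 log2. Among the 8, only Celf2 probe set 4832505 had groups that did not overlap, where 0.804% of all indexed probe sets had both traits. Groups that did not overlap were seen in 8 of 144, where 4.12% of all indexed probe sets had such groups.

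**Figure D3:**
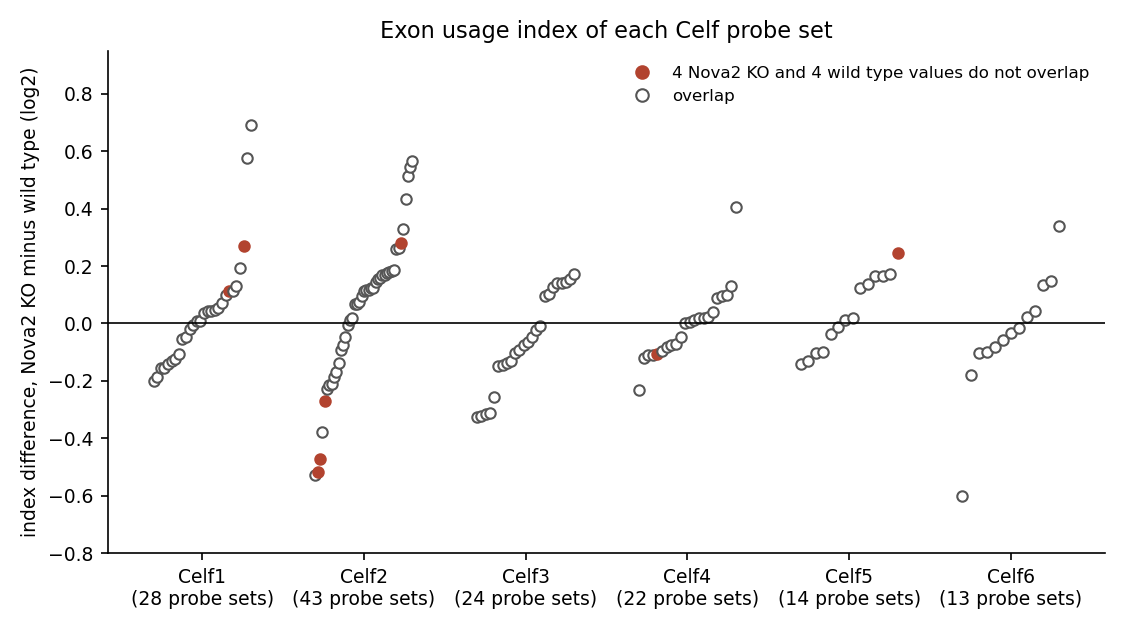
Index difference of each of the 144 kept Celf probe sets, Nova2 KO minus wild type (log2, y axis), ordered by size within each gene (x axis). Filled points, 8 in all, are probe sets whose 4 Nova2 KO and 4 wild type index values do not overlap, and 4 of them belong to Celf2.

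Celf2 held the lowest p of the family. Probe set 4832505 had index values of -0.51, -0.72, -0.45 and -0.85 log2 in Nova2 KO, against -0.13, -0.14, 0.082 and -0.28 log2 in wild type. All Nova2 KO values were below all wild type values. The difference was -0.52 log2 (SE 0.12, unadjusted p = 0.00238), or 0.699-fold, with a limma adjusted p of 0.553. Its own signal was 9.27 ± 0.39 log2 in Nova2 KO and 9.77 ± 0.25 log2 in wild type (SD, n = 4 each), a difference of -0.50 log2, beside 0.017 log2 for the gene value. In the signal the groups overlapped (limma adjusted p = 0.738).

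A second Celf2 probe set, 5503835, chosen after its values were seen, ran the same way. Its index was 0.27, -0.16, 0.073 and 0.20 log2 in Nova2 KO, against 0.43, 0.63, 0.67 and 0.55 log2 in wild type. The groups did not overlap in the index or in the signal, and the index difference was -0.47 log2 (SE 0.12, limma adjusted p = 0.570). Separate Celf2 probe sets went both ways. In the index, 3 had all Nova2 KO values below wild type and 1 had them above, namely 4897735 at 0.28 log2. In the signal, 1 lay below and 2 lay above. Among the latter was 4718163, up 0.45 log2 in the signal and 0.43 log2 in the index, where its groups overlapped. Probe set 4490155 had the index difference farthest below 0 in Celf2, at -0.53 log2 (SE 0.20, limma adjusted p = 0.706), with Nova2 KO 4 at -0.48 log2 among the wild type values. It was -0.28 log2 without Nova2 KO 1 and -0.22 log2 without a filter on low signal. The largest difference in the other direction was that of 5050243, at 0.57 log2 (SE 0.29, limma adjusted p = 0.767). Its index was -2.07, -1.44, -2.07 and -2.03 log2 in Nova2 KO and -2.61, -2.29, -1.76 and -3.20 log2 in wild type, so the groups overlapped and wild type spread widely. Without wild type 4 the difference was 0.32 log2, and without a filter on low signal it was 0.87 log2.

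Within Celf2 the 43 indexed probe sets were divided, 28 higher and 15 lower, and 6 had an unadjusted limma p under 0.05. Of all indexed probe sets 49.8% were higher and 6.76% had such a p. The difference of 4832505 was -0.21 to -0.58 log2 over 21 other settings, lower in Nova2 KO in all of them and called in none. It was -0.30 log2 without Nova2 KO 4, -0.34 log2 without both arrays numbered 4 and -0.21 log2 without a filter on low signal. The 3 probe sets named D230046B21Rik differed by -0.21, -0.14 and -0.17 log2 in the index, with overlapping groups in each.

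**Figure D4:**
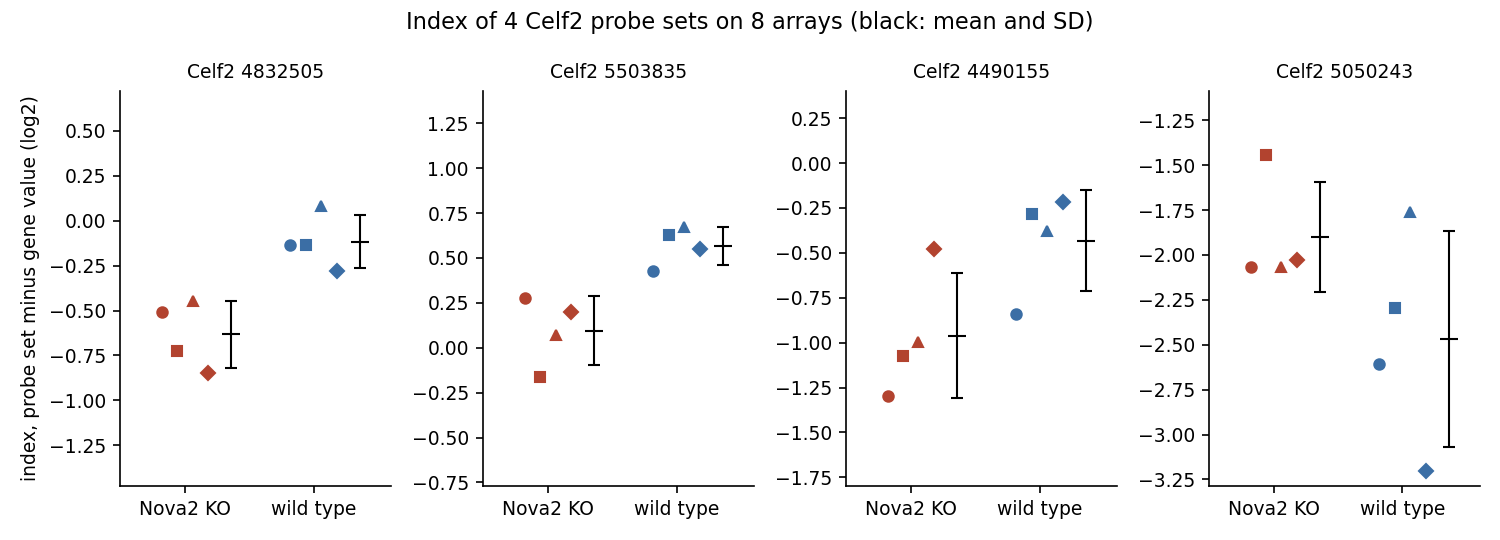
Index (probe set minus gene value, log2, y axis) of 4 Celf2 probe sets on each array, Nova2 KO on the left and wild type on the right of each panel; symbols give the array number and the black bar the mean and SD of 4 arrays. The groups are separate for 4832505 and 5503835 and overlap for 4490155 and 5050243.

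In the other members no named probe set passed the adjusted threshold either. In Celf1, 4540271 had index values of -0.18, -0.46, -0.35 and -0.31 log2 in Nova2 KO, against -0.59, -0.47, -0.62 and -0.70 log2 in wild type. The groups were just separate, with a difference of 0.27 log2 (SE 0.095, limma adjusted p = 0.688). The largest difference in the family, 0.69 log2 (SE 0.31, limma adjusted p = 0.740), was that of Celf1 probe set 5368835. It had a signal of 6.73 ± 0.59 log2 in Nova2 KO and 6.04 ± 0.75 log2 in wild type (SD, n = 4 each), near the filter value of 5.86 log2, and its groups overlapped. Without wild type 4 its index difference was 0.46 log2. The Celf1 probe set with the lowest index difference was 4310513, at -0.20 log2.

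In Celf5, 5088622 had index values of 0.94, 0.93, 0.90 and 0.76 log2 in Nova2 KO and 0.72, 0.71, 0.55 and 0.57 log2 in wild type. The groups were separate and each was tight, with a difference of 0.24 log2 (SE 0.089, limma adjusted p = 0.695). In the opposite direction, Celf5 probe set 4847344 was at -0.14 log2, and at -0.026 log2 without Nova2 KO 3. In Celf6, 5599479 had index values of -0.11, -0.88, -0.20 and 0.00 log2 in Nova2 KO and 0.45, 0.00, -0.015 and 0.80 log2 in wild type. On the arrays with 0.00, Nova2 KO 4 and wild type 2, this probe set was itself the gene median. The groups overlapped through Nova2 KO 4, and the difference was -0.60 log2 (SE 0.24, limma adjusted p = 0.717). Celf6 probe set 4421658 was at 0.34 log2 with overlap, at 0.20 log2 without Nova2 KO 1 and at 0.52 log2 without Nova2 KO 2.

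Celf3 and Celf4 had no index difference with an unadjusted p under 0.05. In Celf3 the range was -0.32 log2 (5434946) to 0.17 log2 (4372025), and the lowest p was that of 5011279 at -0.13 log2 (limma adjusted p = 0.817). These sizes moved with single arrays and settings. For 5434946 the difference was -0.17 log2 without Nova2 KO 1, -0.19 log2 with wild type 2 left out and -0.55 log2 with wild type 3 left out. For 4372025 it was 0.27 log2 without Nova2 KO 2, 0.061 log2 without Nova2 KO 3, 0.11 log2 without Nova2 KO 4 and 0.29 log2 without wild type 4. For 5011279 it was -0.21 log2 with the filter at the 50th percentile and -0.070 log2 with the mean over probe sets. In Celf4 the range was -0.23 log2 (4975642) to 0.41 log2 (4812562). The highest rested on wild type 4, where its signal was 4.09 log2, beside 7.10 to 7.78 log2 on the other wild type arrays, and without wild type 4 the difference was -0.40 log2. It was 0.14 log2 without Nova2 KO 2, 0.80 log2 with wild type 2 left out and 0.69 log2 with wild type 3 left out. For 4975642 the difference was -0.094 log2 without Nova2 KO 2.

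Genes whose values followed a Celf gene most closely over the 8 arrays were picked by the highest Pearson r among 11186 genes, as a description without a p. They were Rgp1 and 4632427E13Rik for Celf1 (r = 0.995 and 0.992), Cacna2d2 and Timm21 for Celf2 (0.972 and 0.968), and Keap1 and Rrn3 for Celf3 (0.984 and 0.977). For Celf4 they were Neurl1b and Notch2 (0.981 and 0.978), for Celf5 Flywch2 and Tex2 (0.989 and 0.982), and for Celf6 Uqcc1 and Tmco3 (0.976 and 0.975). These r were picked as the highest of many and were not set against chance. The 8 arrays share differences in brightness, and the r of a member with the array median was 0.979 for Celf1, 0.779 for Celf2, 0.635 for Celf3, 0.443 for Celf4, 0.578 for Celf5 and 0.565 for Celf6. None of the 12 passed the threshold at the gene level. Keap1 differed most, by 0.22 log2 (SE 0.14, limma adjusted p = 0.576).

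Genes of related function were read through 4 lists. Of 20 other RNA-binding proteins that choose exons, Nova2 itself among them, 18 were measured. Their gene values were higher in Nova2 KO for 14 and lower for 4, the median difference was 0.11 log2, and none passed. The lowest p values were those of Ptbp2, a repressor of neuronal exons (0.50 log2, SE 0.11, limma adjusted p = 0.138), Nova1, the paralog of Nova2 (0.38 log2, SE 0.11, adjusted p = 0.251), and Khdrbs3, a STAR family protein (0.27 log2, SE 0.11, adjusted p = 0.340). In all 3, and in no other of the 18, the groups did not overlap, with the Nova2 KO values above the wild type values. Groups without overlap were found in 7.56% of all genes and in no Celf gene.

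Transcripts known from earlier work, in several species and tissues, as bound or processed by Celf proteins had 13 of 15 genes measured, 6 higher and 7 lower, with a median of -0.035 log2 and none past the threshold. Mapt, which encodes the microtubule protein tau, had the lowest p (0.44 log2, SE 0.12, limma adjusted p = 0.236, groups not overlapping), followed by Jun, a transcription factor whose mRNA decays fast (0.20 log2, adjusted p = 0.457), and the muscle and neuron transcription factor Mef2a (0.23 log2, adjusted p = 0.585). In exon usage 1 of the 13 passed by Simes, Grin1, which encodes the obligate NMDA receptor subunit (adjusted p = 0.00958), beside 0.161% of all genes. Its leading probe set, 4423042, was higher by 1.29 log2. An unadjusted Simes p under 0.05 was found for 5 of the 13, beside 8.37% of all genes. Apart from Grin1 they were Scn8a, Mapt, Jun and Scn1a, none past the adjusted threshold.

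Genes of mRNA deadenylation and decay had 12 of 14 measured members higher and 2 lower, with a median of 0.11 log2 and none past the threshold. Lowest in p were the deadenylase Cnot7 (0.17 log2, limma adjusted p = 0.576), Parn, a poly(A) ribonuclease (0.14 log2, adjusted p = 0.588), and Cnot2, a subunit of the same complex as Cnot7 (0.13 log2, adjusted p = 0.624). Genes of 3-prime end processing had no shared direction, 8 higher and 8 lower of 16, with a median of 0.018 log2 and none past the threshold. Cstf3 was at 0.28 log2 (limma adjusted p = 0.383) and its partner Cstf2 at -0.37 log2 (adjusted p = 0.398), both subunits of the cleavage stimulation factor, and Cpsf1, the large subunit of the cleavage and polyadenylation factor, was at -0.21 log2 (adjusted p = 0.572). In neither list did a gene pass by Simes. Over all genes 55.4% were higher.

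In bulk tissue, fewer cells of a type and less RNA per cell cannot be told apart. Neuron markers had a summed linear signal of 24476 to 28112 in Nova2 KO and 24473 to 27325 in wild type (8 of 9 genes, 5 higher and 3 lower). The sum hides unlike members, since 3 of the 8 had an unadjusted limma p under 0.05 (11.6% of all genes did). Nefl (-0.40 log2) and Nefm (-0.32 log2) were lower and Neurod6 (0.29 log2) was higher, with overlapping groups and none past the threshold. Interneuron markers summed to 7379 to 8803 in Nova2 KO and 6834 to 7904 in wild type (7 of 7 genes). Oligodendrocyte and myelin markers were separate, at 6388 to 7359 in Nova2 KO and 8080 to 8995 in wild type. Of these, 11 of 12 measured genes were lower, and Mog and Mal passed the threshold (0.208% of all genes did). This sum too hides unlike members. Groups did not overlap for Mal (-1.03 log2), Mog (-0.77), Mag (-0.64), Mobp (-0.58) and Cnp (-0.37). Olig1 (-0.11 log2), Pdgfra (-0.10), Olig2 (-0.0075) and Sox10 (0.046) differed little, with overlap. The part of these markers in the Celf values was not tested. In the astrocyte, microglia, endothelium, blood, choroid plexus and neighbouring region lists the sums overlapped between the groups and no gene passed. Ttr, the leading transcript of choroid plexus, was high in both groups, at 13.3 log2 in Nova2 KO and 13.2 log2 in wild type.

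**Figure D5:**
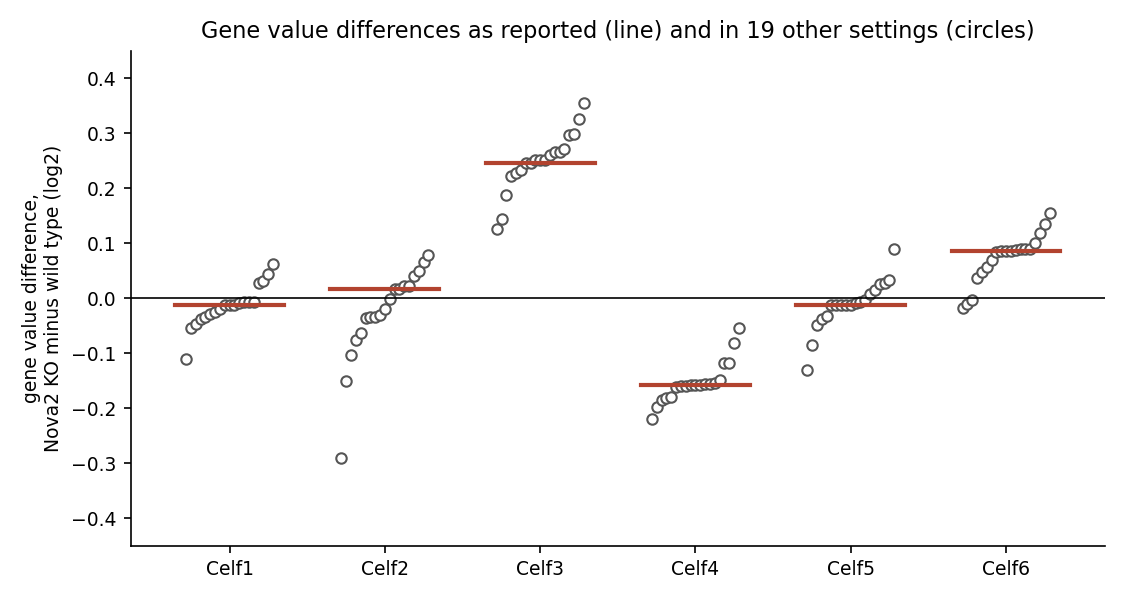
Gene value difference between Nova2 KO and wild type (log2, y axis) of each Celf gene (x axis) as reported (line) and in 19 other settings (circles). Celf3 stays above 0 and Celf4 below 0 in all 19, and the other 4 genes fall on both sides of 0.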

How the data were processed

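Exon array signals of 8 mouse cortex samples were analysed. The deposited values were on a log2 scale, 1 per probe set and array, and were made by the authors with PLIER, a model-based probe summary, per the submitters' processing notes; its version, the genome build and any background correction or normalization are not given in the sources used here. No array held values below 4. Gene names came from the platform annotation, updated through the mouse gene table of GRCm38.p6.

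Probe sets with a mean above the 25th percentile (5.86 log2) were kept. Gene values were medians over 3 or more kept probe sets naming 1 gene; the index needed 5 or more. Each measure was fitted over the whole table with lmFit and eBayes of limma 3.58.1 in R 4.3.3, two-sided, with Benjamini-Hochberg adjustment at 0.05. The steps were also run on simulated data. Its noise was independent between probe sets, without the shared array differences seen here, so it does not measure power or false calls in these data. Arrays have no read depth; their number limits the precision. Labels do not say that the replicates came from separate litters. With 1 array per mouse, the p-values rest on the spread between arrays, in which differences between mice and between arrays cannot be told apart.

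Named were all 6 members and, for each, the probe sets with the lowest p and the highest and lowest difference of the index, those of 0.5 log2 or more without overlap, and up to 3 list genes of lowest p or past the threshold. Members and lists were chosen with earlier results of these data known. Same-numbered arrays had correlations of their deviations of 0.14, 0.33, 0.024 and 0.57. Whether they form pairs was not tested, and the main fits had no pairing. Other settings were filters, normalizations, offset, array weights, omitted arrays, block, probe set summaries and diffSplice. No sequences are shown.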

Additional observations from a re-analysis of the deposited data

Results flagged for a closer look

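In 4 of the 70 groups of 4 arrays examined, 1 array stood far from the other 3; chance alone gives about 1 in 20. For Celf2 probe set 5050243 the index of Nova2 KO 2 was -1.44 log2, above the -2.07 to -2.03 log2 of the other Nova2 KO arrays. For Celf3 probe set 4372025 wild type 4 was at 0.47 log2, above the -0.038 to 0.042 log2 of the other wild type arrays. For Celf4 probe set 4975642 wild type 3 was at -1.72 log2, below the -1.45 to -1.42 log2 of the others. For Celf5 probe set 4847344 Nova2 KO 3 was at -0.44 log2, below the -0.016 to 0.029 log2 of the others. No Celf gene value was among the 4.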

How the results depend on the processing

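No Celf gene or probe set passed the threshold with limma in any other setting run: 0 gene values in 19 settings, 0 signals in 18, and 0 index values and 0 genes by Simes in 21, the replicate block and diffSplice included. The counts over all features moved more: 6 to 80 genes (25 as reported), 0 to 184 signals (20), 2 to 506 index values (26) and 0 to 425 genes by Simes (18); the cause was not tested. The replicate block gave 80 genes, 7 signals, 4 index values and 3 genes by Simes. Whether arrays of the same number belong together is not known. By their deviations, 2 of 4 Nova2 KO arrays were most like the wild type array of the same number. The Nova2 probe set kept its direction in 18 settings (-1.63 to -1.96 log2 without single arrays) and passed in 5: filter at the 50th percentile (-1.82), quantile normalization (-1.82), median centring (-1.82), array median as a covariate (-1.82) and array weights (-1.94). Some uncalled differences changed sign. Celf2 was at -0.29 without a filter, -0.0022 with quantile normalization, -0.10 without both arrays numbered 4, -0.035 with array weights and -0.020 without the D230046B21Rik probe sets, a setting chosen after seeing the data. Without both arrays numbered 4, Celf5 was at 0.015, Celf6 at -0.0033 and Celf4 probe set 4812562 at -0.29; with the mean over probe sets Celf1 was at 0.031 and Celf5 at 0.026 log2. Leaving out single arrays gave -0.11 to 0.061 for Celf1, -0.15 to 0.049 for Celf2, -0.13 to 0.089 for Celf5, -0.017 to 0.15 for Celf6 and -0.40 to 0.80 log2 for 4812562. Probe sets near the filter value have less certain sizes.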

Other observations

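Of the 9 Celf probe sets under the filter, none had groups that did not overlap. Celf2 probe set 4316241 had signals of 5.10, 5.53, 5.92 and 8.13 log2 in Nova2 KO, against 5.07, 5.04, 6.05 and 4.00 log2 in wild type. The value of Nova2 KO 4 stood above the other 7 arrays, and wild type 4 was at the floor of the array.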
